A study of Mus musculus with 15 samples.

Results

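Thpok and the Runx factors were read as 7 genes: Zbtb7b, Zbtb7a, Runx1, Runx2, Runx3, Cbfb and Patz1. They were chosen by symbol, whatever their level, from a table of 53762 genes, and all 7 were among the 16550 genes that passed the filter on low counts. RNA was sequenced from 15 libraries of sorted mature mouse thymocytes, 3 in each of 5 groups. The cells came from irradiated hosts that had received a mixture of wild-type and mutant marrow, all on a C57BL/6 background. Sorted cells had little surface CD69, CD24 or CD44 and much T cell receptor beta chain. WT CD4 SP, the CD4+ single-positive (SP) wild-type (WT) group, held the CD45.1+CD45.2+ competitors in B2m-/- hosts, which lack a chain of MHC class I. The WT CD8 SP group carried the same CD45 marks and came from I-Ab-/- hosts, which lack an MHC class II chain, so host and lineage cannot be told apart between the WT groups. The 3 mutant groups were CD45.2+ cells from B2m-/- hosts. Set against WT CD8 SP cells, they thus differed in host as well as genotype, and these cannot be told apart. The mutant donors all had a Runx3 dYFP allele paired with 1 floxed Runx3 allele. They also had 2 floxed Thpok alleles and carried Cd4-Cre, a recombinase driven by Cd4 sequences that removes floxed DNA in developing T cells. Thpok-RKF- donors gave CD8 SP and CD4+CD8+ cells and Thpok-RKF+ donors gave CD4+CD8+ cells; the labels do not explain Thpok-RKF, its promoter or the dYFP allele.

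Zbtb7b encodes Thpok, a zinc finger repressor that thymocytes need to become CD4 helper cells. Runx3, bound to its partner subunit Cbfb, directs the CD8 cytotoxic lineage, where Runx complexes act on a silencer at Zbtb7b, while Thpok holds Runx3 down in helper cells. Runx1 and Runx2 share the DNA-binding Runt domain with Runx3; Zbtb7a, also called LRF, is the nearest relative of Thpok, and Patz1, also called MAZR, is a zinc finger protein that works with Runx factors to repress Zbtb7b.

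The 3 Runx genes are related also in their promoters, shown here because these genes are set side by side below as a family. RefSeq promoter windows, from 250 bases before to 50 after an annotated start on GRCm38.p6, were found for all 7 members, 11 windows in all. In each of the 3 Runx genes 1 window held the same 18 bases, shown in capitals, with 2 copies of the Runx-type motif ACCACA.
Runx1: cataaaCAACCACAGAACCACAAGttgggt
Runx2: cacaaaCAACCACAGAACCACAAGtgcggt
Runx3: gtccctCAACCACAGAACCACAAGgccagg
The Runx1 stretch is chr16:92826025-92826054 on the minus strand, with the shared bases starting 27 bases after the start site. For Runx2 it is chr17:44814583-44814612 on the minus strand, starting 22 bases after, and for Runx3 it is chr4:135120503-135120532 on the plus strand, where the position is -136. These stretches are cut to 30 bases. The 18 bases occurred in 4 of 32851 promoter windows, those of the 3 Runx genes and of the predicted gene Gm16225, which was named after the search. ACCACA, or TGTGGT on the other strand, occurred at least once in 4 of the members' 11 windows and in 16.8% of all windows, and at least 2 times in 3 of the 11 and in 1.81% of all. Those 3 are the Runx windows with the shared bases, which hold 2 copies, so that count restates the shared bases. The fourth member window with the motif belonged to Zbtb7b. It is 1 of the 2 Zbtb7b windows, and the 250 bases before its start, chr3:89387672-89387921 on the minus strand, are given with the motif in capitals.
Zbtb7b: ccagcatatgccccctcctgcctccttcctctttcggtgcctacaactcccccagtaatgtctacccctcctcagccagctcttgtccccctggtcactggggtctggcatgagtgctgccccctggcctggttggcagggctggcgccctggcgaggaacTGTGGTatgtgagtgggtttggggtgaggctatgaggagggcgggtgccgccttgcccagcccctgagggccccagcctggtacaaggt
The windows of Zbtb7a, Cbfb and Patz1 held no copy of these letters. A match is a run of letters and not a measured binding site.

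Libraries held 37311823 to 48607260 gene counts, and levels are given as CPM, which scales counts to library size, here with TMM factors. Differences were tested with the edgeR quasi-likelihood test over all 16550 genes, and a gene was called where the Benjamini-Hochberg adjusted p was below 0.05. The sort was visible in the counts: WT CD4 SP cells had 888 ± 74.6 CPM of Cd4 (SD, n = 3), WT CD8 SP cells 1.88 ± 1.71 and Thpok-RKF- CD8 SP cells 26.3 ± 13.2. Cd4 stood at 282 ± 100.5 in Thpok-RKF- and 1101 ± 58.4 in Thpok-RKF+ CD4+CD8+ cells. Of a list of 7 B cell genes, Ighm, the immunoglobulin mu locus, had 347 to 1092 CPM in every library and made up most of the list's sum. Cd79a, Cd79b and Ighd reached at most 5.84, 42.8 and 52.1 CPM, Pax5 at most 0.0864 CPM, and Ms4a1 had no count in any library. The 10 myeloid markers summed to 4.03 to 34.0 CPM in WT CD4 SP and 2.05 to 45.6 CPM in Thpok-RKF+ libraries, and to at most 8.17 CPM elsewhere. Replicate 1 gave the high sum in both groups. Its Lyz2 was 28.3 CPM in WT CD4 SP and 24.5 CPM in Thpok-RKF+, against at most 0.393 and 0.876 CPM in their other replicates. In 4 of 5 groups the library numbered 1 differed more from the other 2 than these did from each other, and in WT CD4 SP it was number 3. With all groups together 1543 genes (9.32%) were called for number 1 against the rest. Whether each replicate was a different animal is not in the labels, and the p-values thus reflect the spread among these samples alone, which may be technical. In bulk RNA, fewer cells of a type and less RNA per cell cannot be told apart.

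Zbtb7b separated the groups over more than 3 powers of 10. The WT CD4 SP libraries had 63.9, 79.1 and 27.4 CPM and the WT CD8 SP libraries 0.239, 0.376 and 0.0932 CPM. Among mutants, the levels were 811, 768 and 823 CPM in Thpok-RKF+ CD4+CD8+ libraries, 2.77, 2.95 and 1.67 CPM in their Thpok-RKF- counterparts, and 2.11, 2.51 and 1.92 CPM in Thpok-RKF- CD8 SP libraries. Thpok-RKF+ libraries were above all others, WT CD4 SP libraries came next, the 2 Thpok-RKF- groups overlapped, and WT CD8 SP libraries were below all others. All neighbours in that order differed by the test except the Thpok-RKF- groups, whose log2 difference was 0.18 ± 0.35 (SE; 95% interval -0.58 to 0.93). In WT cells the difference was 7.91 ± 0.47 log2 units in favour of CD4 SP (edgeR, adjusted p = 4.58e-08).

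Mutant cells without Thpok-RKF had more Zbtb7b reads than WT CD8 SP cells. Thpok-RKF- CD8 SP cells were 3.21 ± 0.50 log2 units above WT CD8 SP cells (edgeR, adjusted p = 0.000347), a 9.24-fold difference. Host differs between these groups as well as genotype. The WT CD8 SP level rested on 4 to 15 counts per library. Against WT CD4 SP cells, Thpok-RKF- CD4+CD8+ cells were lower by 23.1-fold (log2 -4.53 ± 0.36, adjusted p = 1.21e-06). These are counts over the full gene and are no check of whether Cre removed the floxed part.

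Thpok-RKF+ CD4+CD8+ cells had 14.1 times the Zbtb7b level of WT CD4 SP cells, a log2 difference of 3.82 ± 0.33 (edgeR, adjusted p = 2.94e-06). Their log2 difference from Thpok-RKF- CD4+CD8+ cells was 8.34 ± 0.42 (adjusted p = 5.22e-08). Zbtb7b varied little within that group, 801 ± 28.9 CPM (SD, n = 3), and most in relative terms in the WT groups, 56.8 ± 26.6 and 0.236 ± 0.142 CPM. The sources used here do not give the make-up of Thpok-RKF, nor whether its reads counted towards Zbtb7b. The plot of Zbtb7b and Runx2 by library shows these steps.

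**Figure D1:**
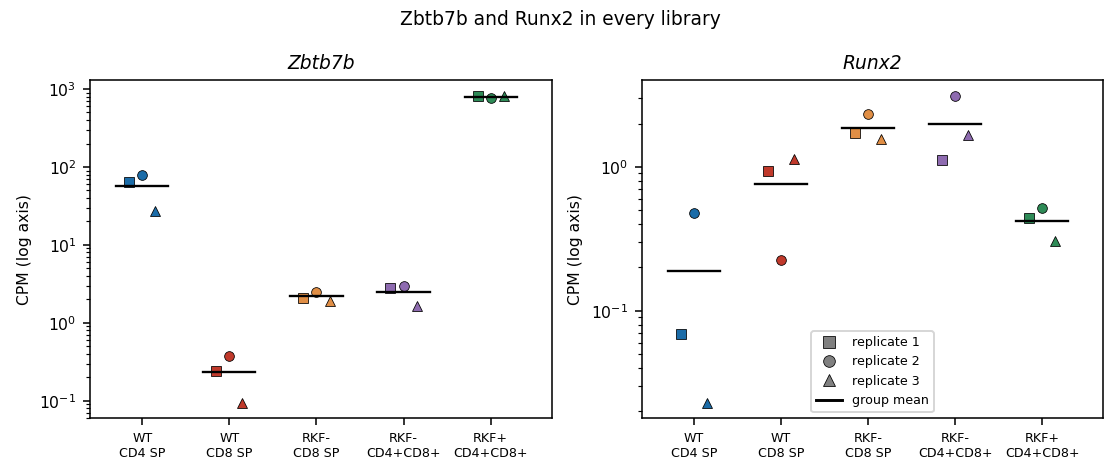
Level of Zbtb7b (left) and Runx2 (right) in CPM, on a log axis, in each of the 15 libraries (RKF stands for Thpok-RKF). Symbols mark replicates and lines the group means. Zbtb7b means run from 0.236 CPM in WT CD8 SP to 801 CPM in Thpok-RKF+ cells, and every Runx2 library lies below 3.13 CPM.

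The gene next to Zbtb7b moved with it in the Thpok-RKF comparison. Dcst2, the nearest neighbour on 1 side, stood at 6.07 CPM in Thpok-RKF+ and 0.775 CPM in Thpok-RKF- CD4+CD8+ cells, a log2 difference of 2.96 ± 0.54 (edgeR, adjusted p = 0.0224). It was the single call among the 5 tested of the 6 nearest neighbours of Zbtb7b, beside 0.961% of all genes, and was named after its values were seen. Dcst2 averaged 0.470 CPM in WT CD4 SP cells, not above its Thpok-RKF- mean, although Zbtb7b was higher in WT CD4 SP. The next gene on the same side, Dcst1, stood at 3.37 and 0.641 CPM and did not pass (log2 2.39 ± 0.90, adjusted p = 0.243). On the other side the nearest tested gene, Flad1, stood at 84.0 and 62.9 CPM and did not pass (log2 0.42 ± 0.16, adjusted p = 0.24). In WT cells 4 of these 5 neighbours were higher and 1 was lower in CD4 SP, where 7.72% of all genes tested were higher and 10.3% lower. An antisense gene, Gm15417, shares 116 exon bases with Zbtb7b, or 2.07% of its exon length, in the GENCODE M21 annotation of GRCm38. Gm15417 averaged 9.07 CPM in Thpok-RKF+ and 1.96 CPM in Thpok-RKF- CD4+CD8+ cells. Its mean was 1.35 CPM for the Thpok-RKF- CD8 SP group, against 7.10 CPM for WT CD4 SP and 0.213 CPM for WT CD8 SP. The strand setting of the counting is not given in the sources used here, so reads in the shared bases cannot be told apart.

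Runx3, the cytotoxic-lineage factor, was low in WT CD4 SP cells and high in all others. Its levels were 30.8, 32.4 and 23.1 CPM in WT CD4 SP and 220.1, 202 and 194 CPM in WT CD8 SP libraries. Thpok-RKF+ libraries had 361, 268 and 286 CPM. Without Thpok-RKF the levels were 295, 267 and 274 CPM in CD4+CD8+ and 306, 246 and 247 CPM in CD8 SP libraries. No WT CD4 SP library came near any other, and the 3 mutant groups overlapped while every mutant library exceeded every WT CD8 SP library. Runx3 was 2.84 ± 0.15 log2 units lower in WT CD4 SP than in WT CD8 SP cells (edgeR, adjusted p = 2.18e-08).

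Runx3 was high in mutant cells with and without Thpok-RKF. Thpok-RKF+ and Thpok-RKF- CD4+CD8+ cells differed by 0.13 ± 0.14 log2 units (95% interval -0.18 to 0.44, edgeR adjusted p = 0.735). A fall of more than 0.18 log2 units lay outside the interval of this fit. With each library left out in turn the difference ran from 0.0038 to 0.22, and that bound is for the full set of libraries alone. Against WT CD4 SP cells, Runx3 was higher by 3.41 ± 0.16 log2 units in Thpok-RKF+ and by 3.28 ± 0.16 in Thpok-RKF- CD4+CD8+ cells (adjusted p = 4.14e-09 and 6.2e-09). Against WT CD8 SP cells the difference was 0.57 ± 0.14 log2 units for Thpok-RKF+ cells, which passed (adjusted p = 0.0192). For the Thpok-RKF- groups it was 0.44 ± 0.14 in CD4+CD8+ and 0.38 ± 0.14 in CD8 SP cells, which did not (adjusted p = 0.0623 and 0.0892). These calls turned on the setting. Runx3 in Thpok-RKF- CD8 SP passed by DESeq2, with the compared groups alone, with a replicate block and with a term for libraries numbered 1 (adjusted p = 0.0363, 0.0297, 0.0298 and 0.0242). In Thpok-RKF- CD4+CD8+ cells it passed by DESeq2, limma and the same 3 fits (adjusted p = 0.0178, 0.0433, 0.0102, 0.0168 and 0.0126). In Thpok-RKF+ Runx3 no longer passed without WT CD8 SP replicate 2 or 3 (adjusted p = 0.0608 and 0.0695). The Runx3 count spans a floxed and a dYFP allele in the mutants, and it does not show how much intact transcript there was. In 4 of 5 groups the library numbered 1 had the most Runx3 (log2 difference 0.23 ± 0.07, adjusted p = 0.0659).

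Runx1, the family member that early thymocytes need, divided the groups differently. WT CD4 SP libraries had 57.9, 64.0 and 40.7 CPM and WT CD8 SP libraries 24.7, 21.1 and 23.7 CPM. Mutant libraries had 60.1, 62.5 and 55.4 CPM (Thpok-RKF- CD8 SP), 68.1, 61.9 and 65.8 CPM (Thpok-RKF- CD4+CD8+) and 66.4, 43.4 and 49.7 CPM (Thpok-RKF+). Only WT CD8 SP libraries were apart, below all the rest. Runx1 was 1.23 ± 0.18 log2 units higher in WT CD4 SP than in WT CD8 SP cells (edgeR, adjusted p = 0.000245). Thpok-RKF- CD8 SP cells, which share the CD8 SP gate, were 1.36 ± 0.18 log2 units above WT CD8 SP cells (adjusted p = 7.68e-05) and differed from WT CD4 SP cells by 0.13 ± 0.17 (95% interval -0.24 to 0.50). In the mutant libraries Runx1 overlapped WT CD4 SP libraries while Runx3 lay above every WT CD8 SP library.

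Runx2, best known from bone formation, was scarce throughout. WT libraries had 3, 23 and 1 counts (CD4 SP) and 35, 9 and 49 counts (CD8 SP). Thpok-RKF- libraries had 77, 107 and 70 counts (CD8 SP) and 55, 141 and 75 counts (CD4+CD8+), and Thpok-RKF+ libraries 21, 24 and 13. In the same order the group means in CPM were 0.189 ± 0.249, 0.766 ± 0.480, 1.87 ± 0.394, 1.97 ± 1.04 and 0.423 ± 0.107. Both Thpok-RKF- groups lay above WT CD4 SP and Thpok-RKF+ libraries without overlap. By the test, the difference of 3.35 ± 0.86 log2 units between Thpok-RKF- CD4+CD8+ and WT CD4 SP cells passed (edgeR, adjusted p = 0.017), and no neighbours in the order of the means differed. That call was lost without WT CD4 SP replicate 1 or 3 or Thpok-RKF- CD4+CD8+ replicate 2 (adjusted p = 0.0569, 0.0564 and 0.0647) and without the 5 libraries numbered 1 (adjusted p = 0.076). Without WT CD4 SP replicate 2, which held 23 of the group's 27 counts, the difference was 5.34. Within CD4+CD8+ cells, Thpok-RKF+ minus Thpok-RKF- was -2.21 ± 0.81 and did not pass (adjusted p = 0.232). The antisense gene Runx2os1 shares 519 exon bases with Runx2 and averaged at most 0.0532 CPM in any group.

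Cbfb, which stabilises Runx proteins on DNA, was highest in WT CD8 SP cells. The libraries had 112, 117 and 138 CPM in WT CD4 SP and 153, 183 and 206 CPM in WT CD8 SP. They had 74.1, 87.5 and 88.2 CPM in Thpok-RKF- CD8 SP, 97.9, 115 and 121 CPM in Thpok-RKF- CD4+CD8+, and 99.4, 120.1 and 126 CPM in Thpok-RKF+. WT CD8 SP libraries were all above and Thpok-RKF- CD8 SP libraries all below those of the other groups. Cbfb fell by 1.12 ± 0.14 log2 units in Thpok-RKF- CD8 SP against WT CD8 SP cells (edgeR, adjusted p = 6.24e-05). In WT CD4 SP against WT CD8 SP cells it fell by 0.56 ± 0.14 (adjusted p = 0.0128). The latter call did not pass without WT CD4 SP replicate 1 or 2 or WT CD8 SP replicate 2 or 3 (adjusted p = 0.0747, 0.0574, 0.0568 and 0.0929). Between Thpok-RKF- CD4+CD8+ and CD8 SP cells the value was 0.42 ± 0.14 (adjusted p = 0.194), which passed with a replicate block or a term for libraries numbered 1 (adjusted p = 0.0142 and 0.0156). Cbfb was lowest in the library numbered 1 in 5 of 5 groups (log2 difference -0.27 ± 0.06, adjusted p = 0.0172).

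Zbtb7a, the paralog of Thpok, was lowest in WT CD4 SP cells. WT CD4 SP libraries had 68.5, 62.4 and 56.8 CPM, and the other 12 libraries lay between 90.7 and 114 CPM. The WT CD4 SP group was thus apart from the other 4, whose means of 98.9 to 111 CPM did not differ between neighbours. Zbtb7a was 0.72 ± 0.10 log2 units lower in WT CD4 SP than in WT CD8 SP cells (edgeR, adjusted p = 0.000259). Thpok-RKF+ cells, with the highest Zbtb7b, were 0.83 ± 0.10 above WT CD4 SP cells (adjusted p = 0.000144) and differed from Thpok-RKF- CD4+CD8+ cells by 0.07 ± 0.10 (95% interval -0.15 to 0.30).

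Patz1, the Runx-associated repressor, was highest in Thpok-RKF- CD8 SP cells. Libraries had 99.9, 73.5 and 58.7 CPM in WT CD4 SP and 97.9, 88.7 and 78.3 CPM in WT CD8 SP. They had 173, 169 and 176 CPM in Thpok-RKF- CD8 SP, 160.02, 148 and 114 CPM in Thpok-RKF- CD4+CD8+, and 146, 91.7 and 91.7 CPM in Thpok-RKF+. Both Thpok-RKF- groups lay above both WT groups, and Thpok-RKF+ libraries overlapped all groups but Thpok-RKF- CD8 SP. Patz1 was 0.97 ± 0.21 log2 units higher in Thpok-RKF- CD8 SP than in WT CD8 SP cells (edgeR, adjusted p = 0.00431). It was 0.86 ± 0.21 higher in Thpok-RKF- CD4+CD8+ than in WT CD4 SP cells (adjusted p = 0.0126), a call lost without WT CD4 SP replicate 3 or Thpok-RKF- CD4+CD8+ replicate 1 (adjusted p = 0.0655 and 0.0534). Within CD4+CD8+ cells, Thpok-RKF+ minus Thpok-RKF- was -0.36 ± 0.21 (adjusted p = 0.45). In 4 of 5 groups the library numbered 1 had the most Patz1 (log2 difference 0.36 ± 0.10, adjusted p = 0.0364). Gm12592, on the opposite strand, and Gm11944, on the same strand, share 10.2% and 1.49% of Patz1 exon bases, and their means were at most 3.43 and 3.83 CPM.

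**Figure D2:**
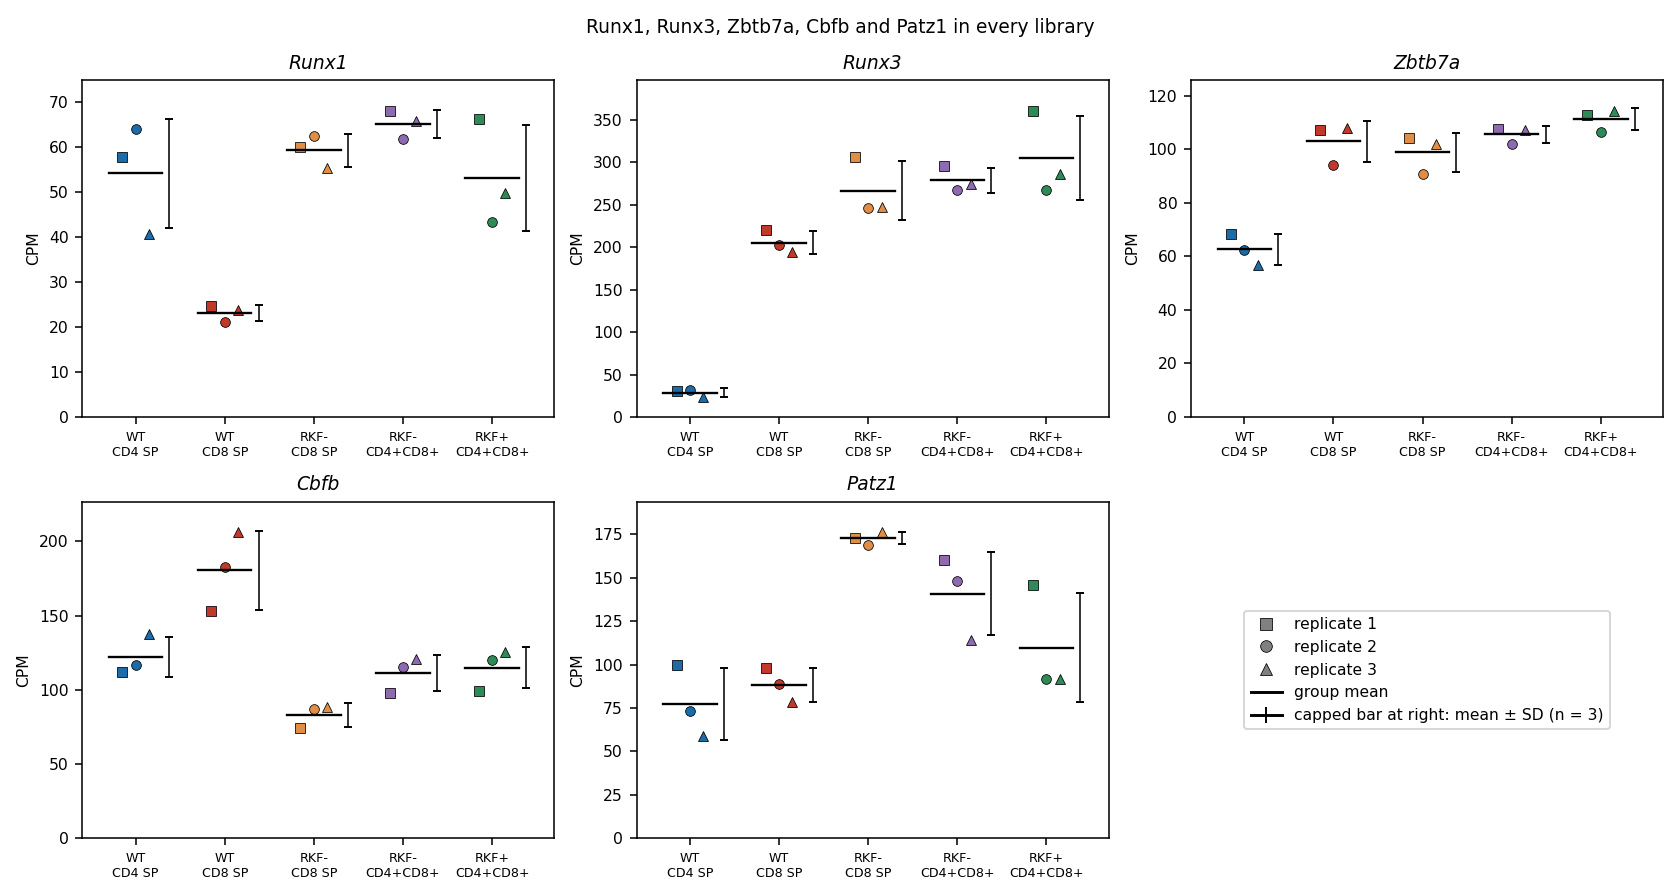
Level of Runx1, Runx3, Zbtb7a, Cbfb and Patz1 in CPM in each library, on axes from 0, with group means and SD (n = 3; RKF stands for Thpok-RKF). Runx3 and Zbtb7a are low in WT CD4 SP cells alone, Runx1 is low in WT CD8 SP cells alone, and Cbfb is lowest and Patz1 highest in Thpok-RKF- CD8 SP cells.

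Read by comparison, members were called in each contrast that set a WT group against another group. The WT pair, CD4 SP against CD8 SP, had 5 of 7 called, where 18% of all genes tested were called. Of these, 2 were higher in CD4 SP, as were 7.72% of all genes, and 3 were lower, as were 10.3%. Patz1 (log2 -0.19 ± 0.21) and Runx2 (-1.99 ± 0.83, adjusted p = 0.119) were not. Thpok-RKF- CD8 SP against WT CD8 SP cells called 4 of 7, where 18.4% of all genes were called. Zbtb7b, Runx1 and Patz1 were the 3 higher (7.77% of all genes) and Cbfb was the 1 lower (10.6%). Against WT CD4 SP cells the count was 5 of 7 members for Thpok-RKF- CD4+CD8+ cells (17.6% of all genes called) and 3 of 7 for Thpok-RKF+ cells (7.26%). Thpok-RKF- CD8 SP against WT CD4 SP cells called 6 of 7 (17.7%), all but Runx1. Of these, the Runx2 call (log2 3.27 ± 0.86) was lost without WT CD4 SP replicate 1 or 3, without Thpok-RKF- CD8 SP replicate 2 and without the 5 libraries numbered 1 (adjusted p = 0.0603, 0.0578, 0.0586 and 0.0976). Without WT CD4 SP replicate 2 the Runx2 value was 5.25. The Cbfb call (-0.55 ± 0.14) was lost without WT CD4 SP replicate 3 or Thpok-RKF- CD8 SP replicate 1 (adjusted p = 0.0648 and 0.0609). WT CD8 SP cells set against CD4+CD8+ mutants gave 4 of 7 for Thpok-RKF- (12.1%) and 4 of 7 for Thpok-RKF+ (11.1%). Zbtb7b, Runx1 and Cbfb were called in both, with Patz1 for Thpok-RKF- and Runx3 for Thpok-RKF+. The Patz1 call (edgeR, adjusted p = 0.04885) was lost in 5 of 6 fits with a library left out (adjusted p = 0.0565 to 0.172). For Thpok-RKF+ the Cbfb call was lost without WT CD8 SP replicate 3 (adjusted p = 0.0689), and the Runx3 call without replicate 2 or 3, as given above. The comparisons with a WT group share the WT libraries, and mutant and WT CD8 SP cells also differ in host.

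Within the mutants edgeR called 0 or 1 member per comparison. Zbtb7b was the 1 member of 7 called between Thpok-RKF+ and Thpok-RKF- CD4+CD8+ cells, where 0.961% of all genes, or 159, were called. That background rests on 1 library: without Thpok-RKF+ replicate 1, 1677 genes were called, and without the 5 libraries numbered 1 it was 1753, and in both 1 of 7 members was called. The median log2 difference over the 7 members was 0.05 log2 units, beside 0.01 over all genes tested. Between Thpok-RKF- CD4+CD8+ and Thpok-RKF- CD8 SP cells edgeR called 0 of 7, DESeq2 0 and limma 0, and 1 member, Cbfb, had an unadjusted p below 0.05, where 2.44% of all genes were called. Thpok-RKF+ CD4+CD8+ against Thpok-RKF- CD8 SP cells called 1 of 7 by edgeR (5.52%), Zbtb7b, with 3 called by DESeq2, 2 by limma and 4 at an unadjusted p below 0.05. Cbfb and Patz1 also passed there with the replicate block (adjusted p = 0.00441 and 0.0118), without Thpok-RKF+ replicate 1 (0.022 and 0.0115) and without the 5 libraries numbered 1 (0.0188 and 0.00721). Without the 5 libraries numbered 1, an alternative chosen after seeing the data, the number called was 5 for the WT groups, 4 for CD8 SP cells of Thpok-RKF- donors set against WT ones, and 1 for Thpok-RKF+ set against Thpok-RKF-. Calls of all genes in these 3 comparisons were then 3003, 3282 and 1753. For CD4+CD8+ cells set against WT CD4 SP cells the number of members called was 4 without and 3 with Thpok-RKF, beside 3331 and 1009 of all genes.

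Counted by libraries, members whose groups did not overlap were 5 of 7 in the WT pair (36.3% of all genes tested) and 6 of 7 for Thpok-RKF- CD8 SP against WT CD8 SP cells (39.6%). Against WT CD4 SP they were 5 of 7 for Thpok-RKF- CD4+CD8+ cells (38.4%) and 3 of 7 for Thpok-RKF+ cells (21%). Between mutants they were 2 of 7, Zbtb7b and Runx2, for CD4+CD8+ cells with against without Thpok-RKF (16.4%) and 2 of 7 for the Thpok-RKF- pair, Cbfb and Patz1 (21.1%). Both counts lie near the share of all genes and are not read as a result about the members. For Thpok-RKF+ CD4+CD8+ against Thpok-RKF- CD8 SP cells they were 5 of 7 (21.1%), with Zbtb7b, Zbtb7a and Cbfb above and Runx2 and Patz1 below.

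**Figure D3:**
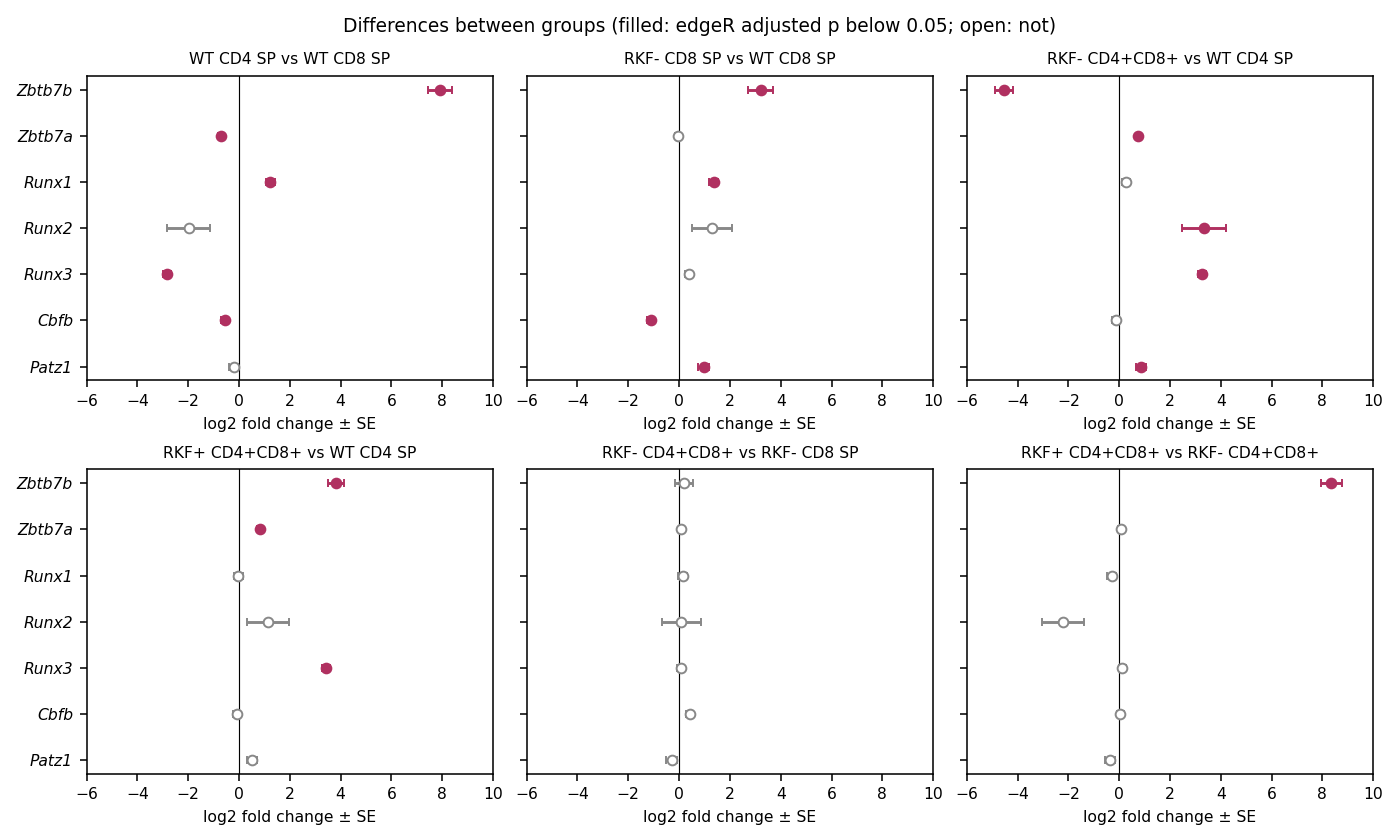
Log2 fold change (point) and SE (bar) of the 7 members in 6 comparisons; filled points have an edgeR adjusted p below 0.05 and open points do not (RKF stands for Thpok-RKF). Zbtb7b, at 8.34, is the single filled point where Thpok-RKF+ is set against Thpok-RKF-.

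The WT groups differ in lineage as well as coreceptor, and both Thpok-RKF- groups came from B2m-/- hosts and were parted by CD4. The test of whether the CD4-linked difference was the same in both settings called 5 of 7 members, beside 14.3% of all genes. In WT cells Zbtb7b was 7.91 log2 units higher and Runx3 2.84 lower in the CD4+ population, and in Thpok-RKF- cells the values were 0.18 and 0.06. The change between the settings was -7.74 ± 0.59 for Zbtb7b and 2.90 ± 0.21 for Runx3 (edgeR, adjusted p = 1e-06 and 6.32e-07). Runx1 (-1.09 ± 0.25), Zbtb7a (0.81 ± 0.15) and Cbfb (0.98 ± 0.20) also passed (adjusted p = 0.00889, 0.00196 and 0.00435).

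To set the Runx genes side by side, CPM was divided by exon length in kb. Runx1 made up 43.7 ± 1.35% (SD, n = 3) of the summed Runx1, Runx2 and Runx3 level per kb in WT CD4 SP cells and 4.47 ± 0.334% in WT CD8 SP cells. It was 6.72 ± 0.403% in Thpok-RKF+ cells, and without Thpok-RKF it was 8.84 ± 0.172% in CD4+CD8+ and 8.50 ± 0.988% in CD8 SP cells. Runx3 made up most of the rest, with 56.1% in WT CD4 SP and 90.8% to 95.3% in the other groups. So, by reads, the mutant libraries had a Runx mix near that of WT CD8 SP cells, with a Runx1 share between the WT groups that overlapped neither. The mutant Runx3 reads span a floxed and a dYFP allele, so these are not shares of intact transcript.

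The summed Runx level was 10.3 ± 2.01 CPM per kb in WT CD4 SP, 43.1 ± 2.72 in WT CD8 SP, 58.4 ± 6.92 in Thpok-RKF- CD8 SP, 61.4 ± 3.07 in Thpok-RKF- CD4+CD8+ and 65.4 ± 10.8 in Thpok-RKF+ cells. Cbfb, the shared partner, stood at 35.1 ± 3.95, 51.9 ± 7.66, 23.9 ± 2.29, 32.0 ± 3.48 and 33.1 ± 3.97 CPM per kb in the same order. In WT cells the ratio of summed Runx to Cbfb was 0.299 ± 0.0839 (CD4 SP) and 0.848 ± 0.183 (CD8 SP). It was 2.48 ± 0.557, 1.94 ± 0.316 and 2.03 ± 0.600 in the mutants, where the lowest library had 1.66 and the highest WT CD8 SP library 1.05. RNA ratios are not ratios of protein, and the mutant sums and ratios rest on Runx3 reads from a floxed and a dYFP allele.

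**Figure D4:**
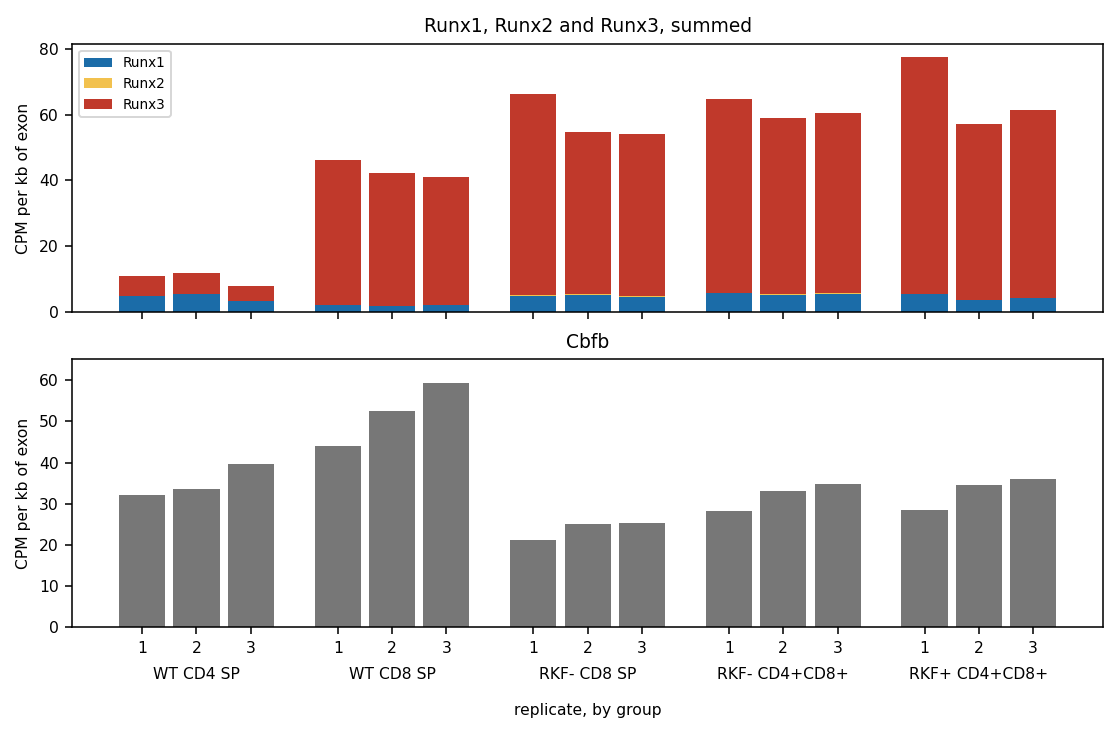
Runx1, Runx2 and Runx3 stacked (top) and Cbfb (bottom), in CPM per kb of exon, in each library by group (RKF stands for Thpok-RKF). The Runx sum is 10.3 in WT CD4 SP and 43.1 to 65.4 in the other groups, while Cbfb lies at 23.9 to 35.1 in all but WT CD8 SP cells (51.9).

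Reads of Zbtb7b and Runx3, the opposed factors of the switch, were high together in Thpok-RKF+ libraries and in no WT library. In Thpok-RKF+ cells both Thpok alleles are floxed, and whether Thpok-RKF reads counted towards Zbtb7b is not known. Their Runx3 reads span a floxed and a dYFP allele, so intact transcript was not measured for either gene. Per kb, the log2 ratio of Zbtb7b to Runx3 was 0.70 ± 0.55 in CD4 SP and -10.14 ± 0.98 in CD8 SP cells of WT origin. It was -7.10 ± 0.29 and -7.03 ± 0.45 in Thpok-RKF- CD8 SP and CD4+CD8+ cells and 1.24 ± 0.20 in Thpok-RKF+ cells. The ratios of Thpok-RKF+ and WT CD4 SP libraries overlapped, at different levels of both genes. The scatter of Zbtb7b against Runx3 places them in a corner that no WT library occupies.

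**Figure D5:**
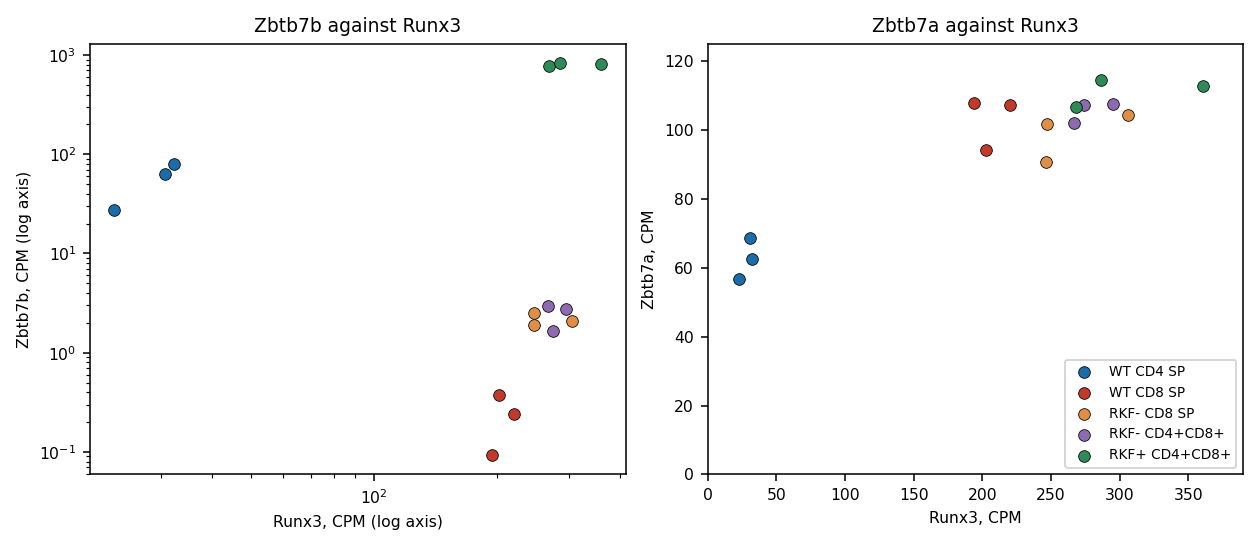
Zbtb7b against Runx3 (left, both axes log) and Zbtb7a against Runx3 (right), in CPM, with 1 point per library coloured by group (RKF stands for Thpok-RKF). Thpok-RKF+ libraries have Zbtb7b of 768 to 823 CPM with Runx3 of 268 to 361 CPM, and Zbtb7a is low only where Runx3 is low, in WT CD4 SP cells.

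Zbtb7a tracked Runx3 across the 15 libraries (Pearson r = 0.965 of log2 CPM), a description in which the 3 WT CD4 SP libraries stand apart: over the other 12 libraries r was 0.455. Runx1 and Cbfb ran opposite ways, with r = -0.838 over 15 libraries and -0.855 over those 12, and Cbfb and Patz1 had -0.753 and -0.898. Runx1 and Runx3, at 0.015 over all libraries, had r = 0.829 without WT CD4 SP. Runx2 and Runx3 had r = 0.708 over 15 libraries and 0.02 over the 12 without WT CD4 SP. The WT CD8 SP libraries, lowest in Runx1, highest in Cbfb and below every mutant library in Runx3, remain among those 12. The r values of Runx1 with Cbfb and with Runx3 over the 12 thus include that step. Their r without WT CD8 SP was not computed. Points share group and, in 4 of 5 groups, a library numbered 1 that stands apart.

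Genes whose pattern was most like a member's were sought by the same r among 8341 genes (8342 for Runx2). For Zbtb7b they were Zfp28 (0.877), Setd4, Dusp5, Samhd1 and Cmtm6 (0.85). Samhd1, which encodes a nucleotide hydrolase, averaged 522 CPM in Thpok-RKF+ and 508 CPM in WT CD4 SP cells, and 191 to 272 CPM in the other 3 groups. For Runx3 they were Eng (0.987), Ccr9 (0.976), Tlr12, Ttc3 and Usp11 (0.97). Eng, an accessory receptor for TGF-beta ligands, averaged 1.61 CPM in WT CD4 SP, 53.4 CPM in WT CD8 SP and 127 to 145 CPM in mutant cells. Ccr9, a gut-homing chemokine receptor, averaged 21.1 CPM in WT CD4 SP, 332 CPM in WT CD8 SP and 380 to 631 CPM in mutant cells. Nearest to Zbtb7a were Runx3, Men1 (0.96) and H2-Oa (0.95), nearest to Runx1 were Polg (0.945), Pik3r2 (0.942) and Pck2 (0.935), and nearest to Runx2 were Axin1, Ankrd54 and Tbc1d22b (0.887 to 0.897).

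Cbfb ran with Cdc42 (0.978), Smc2 (0.976) and Cks1b (0.966). Smc2 encodes a condensin subunit, and Cks1b, a regulator of cyclin-dependent kinases, averaged 63.5 CPM in WT CD8 SP, 12.1 CPM in Thpok-RKF- CD8 SP and 25.1 to 29.6 CPM in the other 3 groups, with the same groups at the top and bottom as for Cbfb. Patz1 ran with Pik3r5 (0.968), Prkcz2 (0.941) and Bsdc1 (0.933). Markers of immature double-positive thymocytes, 10 genes, summed to 531 to 570 CPM in Thpok-RKF- CD8 SP, where Patz1 was highest and Cbfb lowest, and to 335 to 413 CPM in the other groups. Without Dntt the other 9 summed to 344 to 430.3 CPM in Thpok-RKF- CD8 SP and to 280.5 to 393 CPM elsewhere, ranges that overlapped. Most of that sum was Themis (132 to 258 CPM over all libraries) and Cd1d1 (66.4 to 211 CPM), so its overlap does not speak for the scarcer markers. Arpp21, another of the 10, had at least 9.52 CPM in each Thpok-RKF- CD8 SP library and at most 8.501 CPM in any other. By edgeR, 3 of the 10 were higher and 1 lower in Thpok-RKF- CD8 SP than in WT CD8 SP cells. Dntt, which encodes the terminal transferase of receptor rearrangement, had 107, 187 and 197 CPM in Thpok-RKF- CD8 SP libraries and at most 54.1 CPM in the others, while Rag2 had at most 1.78 CPM in any library. The part of these cells or genes in the levels of Patz1 and Cbfb was not tested.

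Upstream of the switch, a list of 16 regulators of Thpok and Runx3 had 4 genes higher and 1 lower in WT CD4 SP than in WT CD8 SP cells, where 7.72% of all genes were higher and 10.3% lower. Gata3, which acts before Thpok in helper cells, was higher by 1.24 ± 0.16 log2 units, and Satb1, an organiser of chromatin at both loci, by 0.71 ± 0.08. Tcf7, which encodes TCF-1, was higher by 0.50 ± 0.10, and Id2, an inhibitor of E proteins, was lower (-1.18 ± 0.16). The list's median was 0.25 log2 units, beside -0.03 over all genes tested. In CD4+CD8+ cells with against without Thpok-RKF 1 of 16 was called, beside 0.961% of all genes. It was Socs1, a brake on cytokine signals, which rose from 102 ± 5.31 to 155 ± 12.3 CPM (log2 0.60 ± 0.11, edgeR, adjusted p = 0.0143). Socs1 was also 1.52 ± 0.11 higher in Thpok-RKF- CD8 SP than in WT CD8 SP cells, which differ in host too. There 6 list genes were higher and 2 lower, beside 7.77% and 10.6% of all genes.

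Of 15 tested Runx partners and corepressors, 1 was higher and 2 lower in WT CD4 SP cells, a number near the 18% of all genes called there and not read as a result about the list. Ets1, which binds DNA together with Runx proteins, was higher (0.68 ± 0.09), and the Groucho-type corepressor genes Tle4 (-0.52 ± 0.14) and Tle1 (-0.70 ± 0.21) were lower. In the Thpok-RKF comparison edgeR, DESeq2 and limma each called 0 of 15, with 2 at an unadjusted p below 0.05. Of 18 tested relatives of Thpok in the BTB zinc finger family, 3 were higher and 1 lower in WT CD4 SP cells: Zbtb18 (1.17 ± 0.25), Zbtb20 (0.74 ± 0.23), Zbtb38 (0.59 ± 0.12) and Zbtb25 (-0.42 ± 0.12). This number too is near the 18% of all genes and is not read as a result about the family. With against without Thpok-RKF, edgeR called 0 of these 18, DESeq2 1 and limma 0, with 3 at an unadjusted p below 0.05 and a median of -0.29 log2 units, beside 0.01 over all genes. Thpok-RKF- CD8 SP cells had 7 of these 18 higher and 1 lower than WT CD8 SP cells, where 7.77% of all genes were higher and 10.6% lower.

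Genes downstream of the switch, a list of 14, had 4 higher and 9 lower in WT CD4 SP than in WT CD8 SP cells. Of all genes tested, 7.72% were higher and 10.3% lower there, and the list was written with earlier results of these data known. The smallest p-values were those of Itgae (-6.68 ± 0.20), Cd8b1 (-6.09 ± 0.23), Cst7 (-4.29 ± 0.17) and Cd8a (-8.42 ± 0.43), of which Cd8a and Cd8b1 were used by the sort. With against without Thpok-RKF, Cd4 (1.97 ± 0.42, edgeR, adjusted p = 0.0393) and Cst7 (0.72 ± 0.15, adjusted p = 0.0344) were higher and none of the other 12 passed. There 0.961% of all genes were called. Cd4 is a gene that Thpok guards from repression, and Cst7 encodes a cystatin of cytotoxic cells. Thpok-RKF+ cells still had 7 of the 14 higher and 2 lower than WT CD4 SP cells, where 7.26% of all genes were called. For Thpok-RKF- CD4+CD8+ cells these numbers were 7 and 4, where 17.6% of all genes were called. The list holds the 3 coreceptor genes of the sort, Cd4, Cd8a and Cd8b1. Of these, 2 were among the higher for Thpok-RKF+ cells, and 2 among the higher and 1 among the lower for Thpok-RKF- cells. In the WT pair 1 was among the higher and 2 among the lower. A CD4+CD8+ gate set against a CD4 SP gate differs in CD8 by the sort, so these counts are not free of it. Both comparisons share the WT CD4 SP libraries.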

How the data were processed

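RNA from 15 libraries was read as 101 bp pairs on a NovaSeq after SMARTer Ultra Low Input library preparation, per the labels' protocols. Raw counts of reads on each gene were deposited. Tools in the submitters' processing notes are STAR, HTSeq, DESeq2, Trimmomatic and bcl2fastq 2.17, with mm39 as the build. Annotation and strand setting were not given in the sources used here. The authors also deposited CPM values for 31597 genes, which scaled back to whole counts in 100% of cases (tolerance 0.01). In the tables of the whole series 3 columns matched no sample label and were not used. Lines that name no gene, 5 per library, held 15.9% to 21.0% of counts and were left out. No replicate pair agreed within sampling noise (chi-square over degrees of freedom from 11.1 to 190.4).

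Groups were taken from the titles. Counts were tested with edgeR 4.0.16 in R 4.3.3 (TMM, quasi-likelihood test, 1 model of 5 group means, minimum count 10 and minimum total 15), with Benjamini-Hochberg adjustment over 16550 genes at 0.05. Standard errors are the log2 fold change over the square root of F. The test was run first on simulated counts with known changes. Per-kb levels used exon lengths from GENCODE M21 (GRCm38), another build than mm39, and no coordinates were joined across builds. Neighbours were taken from the RefSeq gene order on GRCm38.p6.

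The members and lists were chosen with earlier results of these data known. Named were the 7 members, up to 4 called genes of each list by smallest adjusted p in the WT and the Thpok-RKF comparison, and the genes with the highest Pearson r (5 for Zbtb7b and Runx3, 3 for the rest; log2 CPM with prior count 2, mean of at least 3, no predicted models, receptor segments, Xist or Y-linked genes). Alternatives were relative log expression (RLE) size factors, no low-count filter, DESeq2 1.42.0, only the compared groups, the replicate block, limma 3.58.1 on log2 of deposited CPM plus 1, and each library left out. Leaving out the 5 libraries numbered 1, or a term for them, was added after seeing the data.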

Additional observations from a re-analysis of the deposited data

Results flagged for a closer look

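For 5 members the difference between CD4+ and CD4- cells was not the same in mutant as in WT libraries, by a test of that difference itself (edgeR quasi-likelihood test). Thpok-RKF- CD4+CD8+ against Thpok-RKF- CD8 SP cells was set against WT CD4 SP against WT CD8 SP cells. Mutant minus WT, the log2 values were -7.74 for Zbtb7b, 2.90 for Runx3, -1.09 for Runx1, 0.98 for Cbfb and 0.81 for Zbtb7a. The WT CD8 SP cells came from I-Ab-/- hosts and the other 3 groups from B2m-/- hosts, so host and lineage cannot be told apart in the WT part of this contrast. The share of all genes that passed the same test was 14.3%.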

How the results depend on the processing

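Member counts are limited by 3 libraries per group and, for Runx2 and for Zbtb7b in WT CD8 SP cells, by few reads. RLE size factors left all 77 member values on their side of the threshold, and no scaling moved the median of all genes by over 0.07 log2 units. Between Thpok-RKF- CD4+CD8+ and CD8 SP cells the number of members called was 1 with the replicate block and 1 with a term for libraries numbered 1, in place of 0. With each library left out in turn, members called ran from 0 to 0 in that comparison, 3 to 5 for Thpok-RKF- CD4+CD8+ against WT CD4 SP, 4 to 5 for the WT groups, 4 to 4 for Thpok-RKF- CD8 SP against WT CD8 SP, 3 to 4 for Thpok-RKF+ against WT CD4 SP, 1 to 1 for Thpok-RKF+ against Thpok-RKF- and 5 to 6 for the difference between settings. In the same order, calls of all genes over these fits ran from 216 to 311, 1488 to 2626, 1908 to 2623 and 2037 to 2700. For the last 3 comparisons they ran from 832 to 1322, 50 to 1677 and 1609 to 2231. The count of 3 members was without WT CD4 SP replicate 3, where 1488 of all genes were called, against 2908 in the main fit. The cause was not tested.

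Whether the replicate numbers pair the samples was not settled. In no comparison was every correlation of same-numbered samples over 0.1, but those of number 1 ran from -0.014 to 0.221. The replicate block moved 6 of 77 member values past the threshold and 0 below it, and with it Patz1 in Thpok-RKF+ against WT CD4 SP cells had adjusted p = 0.0454. In all, 22 of 504 values with a library left out lost a call, 5 gained one and 14 changed sign, none of the last a called value.

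Signs changed for values near 0. Runx2 in Thpok-RKF- CD4+CD8+ against CD8 SP cells was -0.0086 with the replicate block. By limma, Cbfb in Thpok-RKF+ against Thpok-RKF- was -0.0032 and Zbtb7a in Thpok-RKF- CD8 SP against WT CD8 SP 0.0071. With a library left out, Runx1 ran from -0.23 to 0.10 in Thpok-RKF+ against WT CD4 SP and from -0.0725 to 0.25 in Thpok-RKF- CD8 SP against WT CD4 SP. Patz1 ran from -0.30 to 0.10 in the difference between settings and from -0.39 to 0.0094 between WT groups. Zbtb7a ran from -0.0173 to 0.0818 in Thpok-RKF- CD4+CD8+ and from -0.11 to 0.0040 in Thpok-RKF- CD8 SP against WT CD8 SP. Runx2 ran from -0.42 to 0.38 between the Thpok-RKF- groups. Cbfb ran from -0.0456 to 0.15 in Thpok-RKF+ against Thpok-RKF- and from -0.16 to 0.0054 in Thpok-RKF+ against WT CD4 SP.

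Calls of all genes moved by more than 1.5 times in some settings. Between Thpok-RKF+ and Thpok-RKF- CD4+CD8+ cells 159 genes were called, 428 without the low-count filter, 676 by DESeq2, 52 with the compared groups alone, 350 with a term for libraries numbered 1 and 1753 without those libraries. With each library left out it ran from 50 to 1677, the latter without Thpok-RKF+ replicate 1. It was 240 with the replicate block and 287 by limma. For Thpok-RKF+ against WT CD4 SP cells 1202 became 1946 by DESeq2 and 581 with the compared groups alone, and between the Thpok-RKF- groups 403 became 782 by DESeq2. For Thpok-RKF+ CD4+CD8+ against Thpok-RKF- CD8 SP cells 913 became 1523 by DESeq2, 500 with the compared groups alone, 1782 without Thpok-RKF+ replicate 1 and 2105 without the libraries numbered 1. With 1 library left out, 2981 calls fell to as few as 1908 for the WT pair. Against WT CD4 SP, 2908 fell to 1488 for Thpok-RKF- CD4+CD8+ and 2922 to 1613 for Thpok-RKF- CD8 SP cells. Against WT CD8 SP, 2010 fell to 1147 for Thpok-RKF- and 1835 to 1092 for Thpok-RKF+ CD4+CD8+ cells. Between the Thpok-RKF- groups 403 fell to 216.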
